A study of Mus musculus with 28 samples.

Results

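Left ventricle (LV) tissue of mice that had lost plakophilin 2 in their cardiomyocytes was compared with LV tissue of control mice by RNA sequencing. The comparison rests on the 9 libraries labelled LV and buffer-treated, 4 Pkp2-cKO (cKO) and 5 wild-type (WT), each from a separate animal, of 28 libraries in the series. The cKO mice carried αMyHC-Cre-ER(T2), a tamoxifen-activated Cre driven by a cardiomyocyte promoter, together with floxed alleles of Pkp2 (Pkp2 fl/fl), and tamoxifen induced the deletion. The WT mice were Pkp2 fl/fl littermates without Cre, so Cre expression and Pkp2 loss cannot be told apart here. All 9 animals were C57BL6 and were injected with HBSS, the buffer that carried the vector in the treated arms. The study places the collection of hearts at 9 weeks after induction, in adult mice of a range of ages. For its other experiments, however, it reports that buffer-treated cKO mice died or reached the humane endpoint before that time. Whether every cKO heart was taken at 9 weeks cannot be told from the sources used here. Time after induction may therefore differ between the groups, and its part was not tested. Whether WT mice also got tamoxifen is not given in the sources used here, and the age of each animal was not used here. Xist and the Y-linked transcripts placed 3 WT and 2 cKO hearts as female and 2 WT and 2 cKO hearts as male.

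Plakophilin 2 is an armadillo-family protein of the desmosome, the adhesive junction that ties the intermediate filaments of neighbouring cardiomyocytes together at the intercalated disc. The disc also holds adherens junctions, the connexin 43 gap junctions that pass current from cell to cell, and a pool of sodium channels. Mutations in desmosomal genes are the most frequent known genetic basis of arrhythmogenic cardiomyopathy, in which muscle is lost, fibrous and fatty tissue appears and arrhythmias occur.

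Libraries held between 23196670 and 39381144 estimated counts, and levels below are CPM (counts scaled to a library of fixed size) with library sizes scaled by the TMM method. Values in every heart are given in the order WT 248, 626, 636, 637 and 647, then cKO 177, 180, 257 and 264. The WT hearts were close to each other and the cKO hearts were not. Over the 8865 genes with at least 5 CPM in both groups, the median SD of log2 CPM was 0.13 among WT hearts and 0.28 among cKO hearts, and 83.1% of these genes varied more in cKO. The median absolute deviation from the WT mean was 0.08 to 0.09 log2 in the WT hearts, 0.29, 0.30 and 0.34 in cKO 180, 257 and 264, and 0.51 in cKO 177. On the first principal component, which held 55.9% of the variance, the WT hearts lay between -27.7 and -21.4, cKO 180, 264 and 257 at 11.2, 25.8 and 27.0, and cKO 177 at 62.1. The heart cKO 177 stands apart. Values without it are given where they end the call of a named gene, and for only some of the other values and lists it moved. Without it the list medians moved from -0.45 to -0.16 for myosin and thick filament and from -0.51 to -0.35 for calcium handling. They moved from -0.86 to -0.61 for fatty acid oxidation, -0.77 to -0.58 for the citric acid cycle and -0.83 to -0.63 for branched-chain amino acids and ketones.

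Tested with edgeR's quasi-likelihood method and adjusted by Benjamini-Hochberg, 5875 of 16410 genes tested (35.8%) were called at an adjusted p under 0.05, 3236 of them higher in cKO (19.7% of those tested) and 2639 lower (16.1%). The rises were the larger changes. Of the genes called higher, 1804 rose over 2-fold and 286 over 8-fold, whereas 667 and 39 of the genes called lower fell by as much. The median called gene rose by 1.13 or fell by 0.71 on the log2 scale. The genes that fell took 64.7% of the tested counts in WT hearts and 46.0% in cKO hearts, while the genes that rose went from 6.16% to 17.2%. Among the genes that fell were 10 of the mitochondrial genome. Transcripts of that genome as a whole took a mean of 35.4% of all counts in WT and 23.7% in cKO. Groups did not overlap in any heart for 66.2% of the genes called higher and 82.7% of those called lower, beside 14.2% and 14.4% of all genes tested. Without cKO 177, 5448 genes were called, 4868 of them shared with the 9-heart comparison, all in the same direction. On the TPM scale, which is not corrected for the mitochondrial share, the median gene lay 0.37 log2 higher in cKO and 92.6% of the calls were rises, against 55.1% here. Of the genes called lower that are described below, several were not called on that scale. Some are noted beside the gene, and the others were Ank2 (-0.30, adjusted p = 0.116), Fgf13 (-0.38, 0.0861), Pln (-0.59, 0.0576), Ttn (-0.22, 0.15), Prdm16 (-0.19, 0.481), Irx4 (-0.38, 0.0621), mt-Nd3 (-0.56, 0.0666), Uqcrq (-0.38, 0.0576), Fh1 (-0.28, 0.0999), Hk2 (-0.36, 0.112), Vldlr (-0.51, 0.116), Hspb8 (-0.26, 0.225), Hspd1 (-0.45, 0.0514), Timd4 (-0.41, 0.0504) and Kdr (-0.25, 0.337). After TPM was rescaled without mitochondrial genes, the median gene lay 0.15 log2 higher in cKO and 66.4% of the calls were rises. That rescaling also dropped every gene not annotated as protein-coding, so the part of the mitochondrial genes in the shift was not tested. Below, the TPM scale is the one without this rescaling. Counts of list members called stand beside the 19.7% of all genes called higher and the 16.1% called lower. Directions below are relative to a median gene at 0.05, and a library sum cannot tell fewer cells of a type from less RNA per cell.

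**Figure D1:**
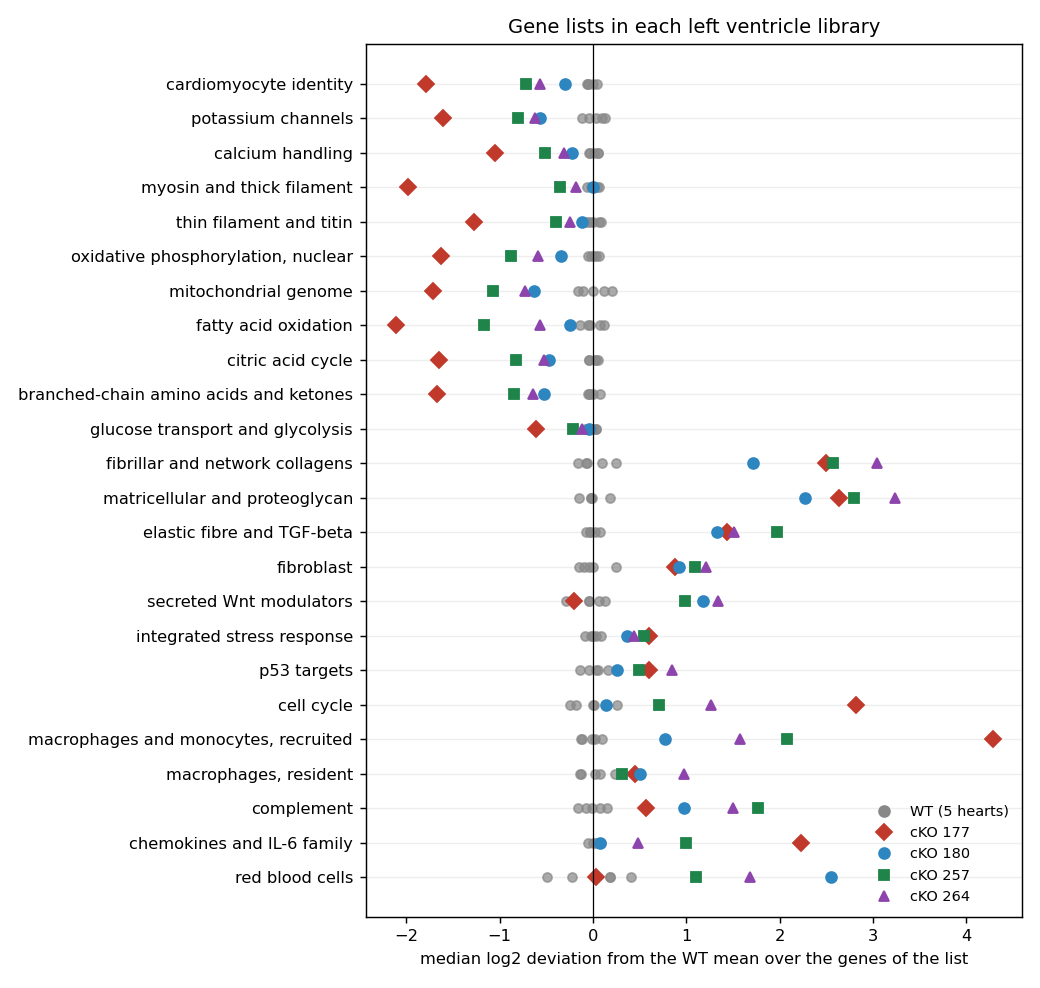
Median log2 deviation from the WT mean (horizontal axis, prior of 0.5 CPM) over the tested genes of 24 gene lists, 1 point per heart, grey circles for the 5 WT hearts and coloured symbols for the 4 cKO hearts. For the cardiomyocyte and energy lists the cKO hearts keep nearly the same order, with cKO 177 lowest (-1.79 for cardiomyocyte identity) and cKO 180 nearest to WT (-0.30), whereas for the collagens cKO 264 is the farthest from WT (3.04).

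Pkp2 itself fell in every cKO heart. It stood at 117, 110, 121, 111 and 103 CPM in WT and at 29.2, 44.9, 42.0 and 55.2 CPM in cKO, without overlap. The fall was 1.39 ± 0.15 (log2, SE; adjusted p = 1.3e-05), 2.62-fold, and 1.26 without cKO 177. The counts cover the whole gene on chromosome 16 (GRCm39 16031144 to 16090586), so transcript from exons that Cre does not remove and from other cells is in them. Esr1, whose human counterpart supplies part of the Cre-ER(T2) fusion, rose from 1.47 to 2.09 CPM in WT to 2.94 to 5.59 CPM in cKO (1.43 ± 0.21, adjusted p = 0.00014).

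The 6 other desmosome genes tested had log2 differences between -0.62 and 0.15. Of these partners of plakophilin 2, 2 fell and none rose, and the median was -0.36 beside 0.05 over all genes, turning to 0.18 on the TPM scale. With TPM rescaled without mitochondrial genes the median was -0.23, with 1 fall. Dsc2, encoding the desmosomal cadherin desmocollin 2, stood at 52.9, 44.9, 47.3, 45.4 and 51.6 CPM in WT and 21.0, 43.1, 31.7 and 30.7 CPM in cKO. It fell by 0.62 ± 0.16 (adjusted p = 0.0073) and the groups did not overlap, although cKO 180 was close to the WT range, and on the TPM scale it was not called (-0.17, adjusted p = 0.343). Jup, encoding plakoglobin, fell by 0.29 ± 0.10 (adjusted p = 0.037), but it was at 0.29 on the TPM scale and missed the threshold when cKO 177 or 257 or WT 248, 636, 637 or 647 was left out (adjusted p = 0.0593 to 0.0884). Dsp, encoding desmoplakin, the plaque protein that binds the intermediate filaments, had 1574 to 2009 CPM in WT and 689, 1597, 1483 and 1385 CPM in cKO. Its difference of -0.43 ± 0.20 was not called (adjusted p = 0.098), and cKO 180 reached into the WT range. Dsg2, encoding desmoglein 2, was not called either (-0.49 ± 0.23, adjusted p = 0.11), with values from 49.4 CPM in cKO 177 to 143 CPM in cKO 180. Without cKO 180 both were called (Dsp -0.56, adjusted p = 0.047; Dsg2 -0.81, adjusted p = 0.00391).

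The adherens junction and area composita list split into 8 rises, 3 falls and 8 genes not called among 19 tested. Its median of -0.09 was 0.47 on the TPM scale, where none was called lower. The list also held genes of other structures, such as Pdlim3 and Lmna, so its rises are not all of junction genes. Without WT 647, 5 rose, and without cKO 180, 5 fell. Cdh2, encoding N-cadherin, had 513 to 554 CPM in WT and 328, 503, 383 and 414 CPM in cKO. It fell by 0.38 ± 0.11 (adjusted p = 0.013) but was at 0.17 on the TPM scale. Ctnna3, encoding the heart-enriched alpha-T-catenin of the area composita, fell by 0.71 ± 0.22 (adjusted p = 0.018). That call was lost with only WT and cKO libraries fitted (adjusted p = 0.0559) and on the TPM scale (-0.29, adjusted p = 0.144). Among the rises were Pdlim3, encoding a Z-disc protein, from 3.19 to 6.39 CPM in WT to 9.49 to 23.1 CPM in cKO (1.65 ± 0.26, adjusted p = 0.00027), Xirp1 by 0.67 ± 0.18 (adjusted p = 0.0093) and Vcl, encoding vinculin, by 0.29 ± 0.09 (adjusted p = 0.020; 0.0519, 0.0686 and 0.0516 without cKO 177, cKO 264 and WT 647). Lmna, encoding the nuclear lamins A and C, rose from 46.4 to 60.9 CPM to 70.9 to 127 CPM (0.77 ± 0.16, adjusted p = 0.0015).

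The genes of connexin 43 and of a sodium channel beta subunit fell, Gja1 without a call on the TPM scale (-0.57, adjusted p = 0.0576). Of 14 gap junction and sodium channel genes tested, 5 fell and none rose (median -0.21). On the TPM scale 2 fell and 5 rose (median 0.07), and without cKO 177, 2 rose. Gja1, encoding connexin 43, stood at 649, 652, 643, 613 and 686 CPM in WT and 401, 232, 389 and 212 CPM in cKO, a fall of 1.07 ± 0.18 (adjusted p = 0.00036). Here cKO 177 was the highest of the cKO hearts. Scn4b, encoding a sodium channel beta subunit, went from 25.4 to 49.6 CPM in WT to 0.728, 8.53, 2.97 and 6.93 CPM in cKO (fell by 2.99 ± 0.57, adjusted p = 0.00099). Ank2, encoding the channel anchor ankyrin B, fell by 0.71 ± 0.20 (adjusted p = 0.012), and Fgf13, encoding a sodium channel regulator, by 0.80 ± 0.22 (adjusted p = 0.012).

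Of 22 potassium channel genes tested, 13 fell and 1 rose, with a median of -0.81, and 13 fell without cKO 177. In TPM, 7 fell and 1 rose (median -0.28). Subunits of the transient outward current, which repolarizes the mouse ventricle early, were among them: Kcnd2 stood at 29.5 to 53.4 CPM in WT and at 5.55, 10.4, 13.9 and 10.7 CPM in cKO (fell by 2.00 ± 0.26, adjusted p = 5.3e-05). Its auxiliary subunit gene Kcnip2 stood at 82.7, 92.7, 86.0, 77.9 and 92.2 CPM in WT and 2.41, 42.5, 32.3 and 32.2 CPM in cKO. That fall of 1.66 ± 0.48 (adjusted p = 0.013) was 1.29 without cKO 177. The inward rectifier gene Kcnj2 fell from 91.4 to 147 CPM to 17.4, 60.8, 64.1 and 43.3 CPM (1.23 ± 0.28, adjusted p = 0.0031). Kcnj3 and Kcnj5, encoding the acetylcholine-gated channel of the heart, fell by 1.64 ± 0.30 (adjusted p = 0.00079) and 1.32 ± 0.16 (adjusted p = 2.6e-05). Kcnv2, a silent modulatory subunit gene, fell from 9.88 to 17.4 CPM to 0.392, 3.91, 2.52 and 3.34 CPM (2.55 ± 0.46, adjusted p = 0.00064). Kcna5 (-0.02 ± 0.25) and Kcnh2 (-0.37 ± 0.29) were not called, and Kcna4 rose by 0.40 ± 0.14 (adjusted p = 0.040), which was lost when cKO 177, 180 or 257 or WT 248, 626, 637 or 647 was left out (adjusted p = 0.053 to 0.119).

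Calcium handling genes fell in 14 of 25 tested, with 2 rises and a median of -0.51. The TPM scale gave 4 falls and 4 rises (median 0.01), and TPM rescaled without mitochondrial genes 11 falls and 2 rises (median -0.40). Atp2a2, encoding the sarcoplasmic reticulum calcium pump SERCA2, stood at 9974 to 11983 CPM in WT and at 2103, 7462, 4859 and 5985 CPM in cKO (fell by 1.07 ± 0.26, adjusted p = 0.0045). Its inhibitor phospholamban, gene Pln, fell by 0.95 ± 0.28 (adjusted p = 0.017). The histidine-rich calcium binding protein gene Hrc fell from 410 to 526 CPM to 42.6, 210, 143 and 168 CPM (1.68 ± 0.34, adjusted p = 0.0015). Jph2, encoding the dyad protein junctophilin 2, fell by 0.86 ± 0.12 (adjusted p = 8.9e-05) and Camk2a by 1.27 ± 0.19 (adjusted p = 0.00014). Ryr2, encoding the calcium release channel, was not called (-0.57 ± 0.24, adjusted p = 0.077): its WT hearts had 4026 to 5093 CPM and its cKO hearts 1512, 3805, 3353 and 3416 CPM, so the groups did not overlap but cKO 177 lay far below the others. Without cKO 180 it was called (-0.70, adjusted p = 0.0434). Slc8a1, encoding the sodium-calcium exchanger, was at -0.06 ± 0.13 and not called. Itpr2, encoding the inositol trisphosphate receptor of cardiomyocytes, rose by 0.47 ± 0.09 (adjusted p = 0.00083), and the gene of the ryanodine receptor-binding protein Fkbp1b rose by 1.86 ± 0.47 (adjusted p = 0.0062) from at most 0.615 CPM.

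**Figure D2:**
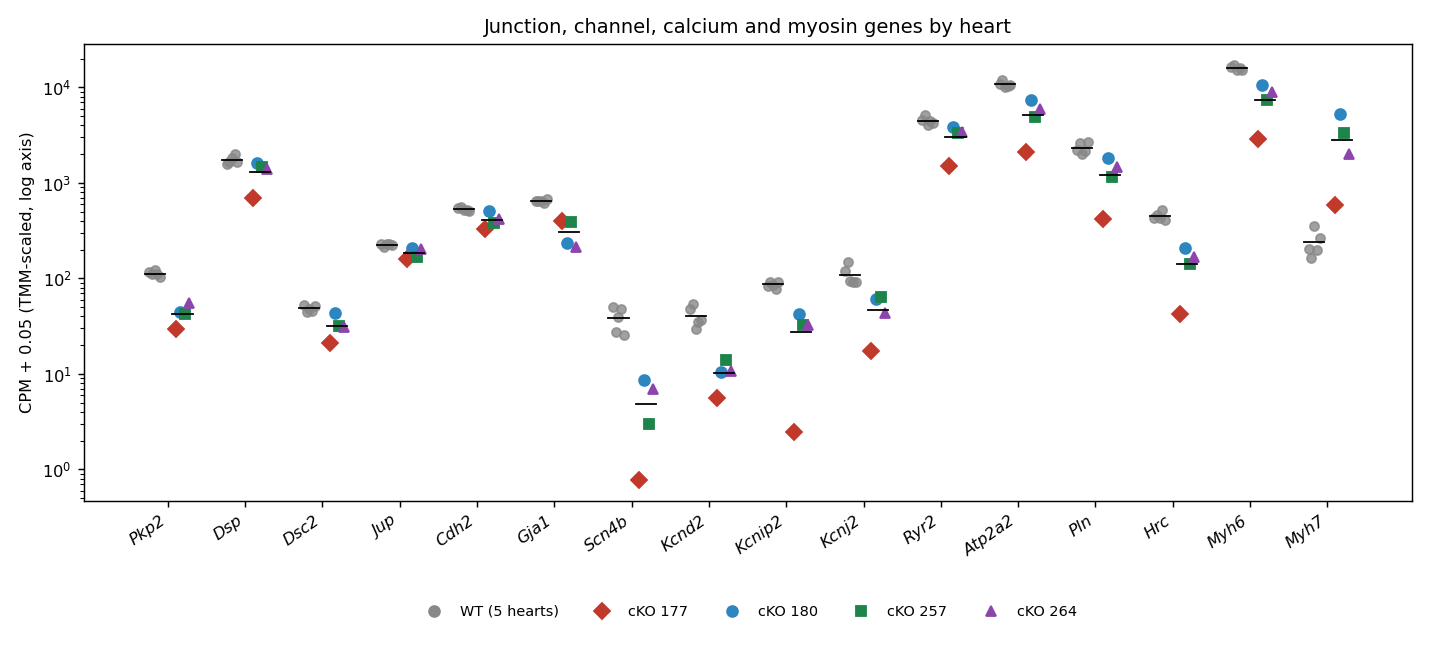
CPM plus 0.05 on a log axis for 16 genes of junctions, channels, calcium handling and myosin, 1 point per heart with black bars at the group means, grey for WT and coloured symbols for the 4 cKO hearts. Pkp2, Gja1, Kcnd2 and Atp2a2 have every cKO heart below every WT heart, and Myh7 has every cKO heart above WT with cKO 177 (589 CPM) the lowest of them.

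The myosin heavy chains moved in opposite directions. Myh6, the adult alpha chain of the mouse ventricle, fell from 15198 to 17263 CPM to 2907, 10530, 7367 and 8882 CPM (1.11 ± 0.28, adjusted p = 0.0060). Myh7, the beta chain expressed before birth and in failing hearts, rose from 203, 163, 356, 200 and 266 CPM to 589, 5246, 3324 and 2011 CPM (3.56 ± 0.48, adjusted p = 7.0e-05). Per length, in TPM, Myh7 made up 1.30% ± 0.38 (SD, n = 5) of the 2 chains in WT and 18.5% ± 7.19 (n = 4) in cKO, with 12.2%, 25.3%, 24.1% and 12.4% in the cKO hearts. The exact permutation test gave p = 0.0079, the smallest that 5 against 4 allows, and 0.011 adjusted over the 7 shares tested. So cKO 177, which had the least Myh7 by level among the cKO hearts, had about the same share as cKO 264. The share of Tnni1, the slow skeletal troponin I of the fetal heart, in Tnni1 plus Tnni3 rose from a mean of 0.0033% to 0.023% (exact permutation test, adjusted p = 0.011). Tnni1 itself was too low to test, with shares of 0% to 0.0069% in WT and 0.051%, 0.0139%, 0.0137% and 0.0143% in cKO. Its partner in the share, Tnni3, fell by 1.15 ± 0.25. Acta1 in Acta1 plus Actc1 was at 1.44% ± 1.21 and 2.93% ± 1.65 (exact permutation p = 0.15).

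Other sarcomere genes were not a uniform group. Of 15 myosin and thick filament genes 6 fell and 2 rose, and of 24 thin filament and titin genes 7 fell and 1 rose (median -0.35). In that second list 12 fell without cKO 180 and 11 with DESeq2 or limma-voom, whereas 3 fell and 3 rose on the TPM scale (median 0.13). The ventricular light chain gene Myl2 fell from 3703 to 4000 CPM to 905, 2812, 1719 and 1922 CPM (1.06 ± 0.23, adjusted p = 0.0028). Cardiac troponin I, gene Tnni3, fell by 1.15 ± 0.25 (adjusted p = 0.0027), but troponin T, gene Tnnt2, was not called (-0.37 ± 0.27, adjusted p = 0.32), nor was Mybpc3, encoding myosin binding protein C (-0.35 ± 0.29, adjusted p = 0.38). Ttn, encoding titin, fell by 0.65 ± 0.22 (adjusted p = 0.027; 0.0507 to 0.0573 without WT 248, 626, 637 or 647). The lowest differences in the 2 lists, in genes not named here, were -3.16 and -2.88. Lmod3, encoding the actin filament nucleator leiomodin 3, fell further than Myl2, Tnni3 and Ttn, by 2.40 ± 0.25 (adjusted p = 9.2e-06). It went from 47.8, 75.2, 94.7, 87.9 and 92.7 CPM in WT to 11.8, 20.2, 15.8 and 12.7 CPM in cKO. Myh7b fell by 2.22 ± 0.43 (adjusted p = 0.0011). In Lmod3 and Myh7b the 3 hearts other than cKO 177 carried the change as well, with falls of 2.31 and 1.88.

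The heart failure list had 9 rises and no falls among 12 tested, and 7 rises without cKO 177 or 5 with only WT and cKO libraries fitted. Nppa, encoding atrial natriuretic peptide, stood at 28.5, 7.29, 58.3, 34.8 and 37.9 CPM in WT and 210, 165, 549 and 189 CPM in cKO (3.06 ± 0.51, adjusted p = 0.0004). Nppb, encoding brain natriuretic peptide, overlapped, with 38.4 to 139 CPM in WT and 319, 100, 213 and 92.7 CPM in cKO. Its rise of 1.16 ± 0.36 (adjusted p = 0.021) missed the threshold without cKO 177 (adjusted p = 0.11) or cKO 257 (adjusted p = 0.0519). Uchl1, a neuronal-type ubiquitin hydrolase gene, rose from 1.99 to 2.84 CPM to 8.21 to 18.9 CPM (2.55 ± 0.37, adjusted p = 0.00014). Atrial genes gave no common direction, with 3 rises and 2 falls among 5 tested, and the atrial light chain gene Myl7 and the atrial regulator Sln were too low to test. Cardiac transcription factor genes fell in 9 of 19 tested and rose in none, and on the TPM scale 1 fell and 3 rose (median 0.20). Among the falls were Prdm16 (-0.69 ± 0.11, adjusted p = 0.00019) and Irx4, a ventricle-restricted factor (-0.89 ± 0.17, adjusted p = 0.0010). The lowest difference in the list was -1.50, in another gene.

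Most energy metabolism genes were called lower, but far fewer of them on the TPM scale. After TPM was rescaled without mitochondrial genes, 30 nuclear oxidative phosphorylation genes fell (median -0.72) and 18 fatty acid oxidation genes fell (median -0.88). Citric acid cycle genes then fell in 15, branched-chain and ketone genes in 15 and mitochondrial regulators in 9. The fatty acid oxidation list and the regulators each had 1 rise with that rescaling, and the creatine shuttle had 4 falls and 2 rises. Among 39 nuclear genes of oxidative phosphorylation, the chain that makes most of the heart's ATP, 36 fell and none rose (median -0.78), and 35 fell without cKO 177 (median -0.60). In TPM, 12 fell and 2 rose (median -0.29). Ndufs4, of complex I, stood at 56.3, 61.8, 48.7, 51.3 and 42.1 CPM in WT and 12.6, 27.8, 19 and 25.7 CPM in cKO (fell by 1.29 ± 0.19, adjusted p = 0.00015). Uqcrc1, of complex III, fell from 516 to 586 CPM to 176, 360, 269 and 357 CPM (0.91 ± 0.17, adjusted p = 0.00066). Transcripts of the mitochondrial genome took 33.5% to 37.0% of all counts in WT hearts and 18.2%, 26.7%, 23.5% and 26.3% in cKO hearts (35.4% ± 1.71 against 23.7% ± 3.94, adjusted p = 0.011 by the exact permutation test). Of its 13 protein genes 10 fell, among them mt-Nd3 (-1.17 ± 0.19, adjusted p = 0.00029), and 3 were not called. On the TPM scale 2 fell (median -0.47), mt-Nd3 not among them.

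Of 28 fatty acid oxidation genes tested 17 fell and 1 rose (median -0.86), beside 11 falls on the TPM scale (median -0.46). Hadh, which carries out the dehydrogenase step of the beta-oxidation spiral, fell from 265 to 304 CPM to 50.3, 189, 101 and 143 CPM (1.26 ± 0.26, adjusted p = 0.0017). The citric acid cycle list had 14 falls among 18 (median -0.77) and 6 on the TPM scale (median -0.27). Among the 14 was Fh1, encoding fumarase (-0.92 ± 0.14, adjusted p = 0.00025). Branched-chain amino acid and ketone genes had 15 falls among 19 (median -0.83), and 9 on the TPM scale (median -0.38): Dbt, of the branched-chain ketoacid dehydrogenase, fell by 1.19 ± 0.14 (adjusted p = 3.2e-05). Of the genes that set mitochondrial content, 9 of 16 fell, among them Esrra, encoding the estrogen-related receptor alpha (-0.77 ± 0.12, adjusted p = 0.00024), Perm1 (-1.23 ± 0.22, adjusted p = 0.00058) and the coactivator gene Ppargc1a (-0.71 ± 0.23, adjusted p = 0.025; 0.0607 without WT 626). On the TPM scale 2 of these genes fell and 5 rose (median -0.11), and neither Esrra (adjusted p = 0.293) nor Ppargc1a (adjusted p = 0.322) was called. The creatine shuttle had 4 falls and 1 rise among 7 (2 falls and 3 rises on the TPM scale), with Ckm, the muscle creatine kinase, at 287 to 315 CPM in WT and 66.5, 190, 154 and 190 CPM in cKO (fell by 1.00 ± 0.24, adjusted p = 0.0041).

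A promoter of the respiratory chain genes is shown because it holds the sequence AAGGTCA (reverse TGACCTT), the half-site of estrogen-related receptors. Of 21770 promoter windows of 300 bases in GRCm39, from 250 bases before the annotated start on, 4.48% held it on either strand, as did 3 of 35 windows of the list. Uqcrq, encoding a small complex III subunit, fell by 0.81 ± 0.17 (adjusted p = 0.0021), from a mean of 142 CPM to 80.9 CPM. Its window is chr11:53321621-53321920 on the minus strand, with the motif in capitals 108 bases before the start.
Uqcrq: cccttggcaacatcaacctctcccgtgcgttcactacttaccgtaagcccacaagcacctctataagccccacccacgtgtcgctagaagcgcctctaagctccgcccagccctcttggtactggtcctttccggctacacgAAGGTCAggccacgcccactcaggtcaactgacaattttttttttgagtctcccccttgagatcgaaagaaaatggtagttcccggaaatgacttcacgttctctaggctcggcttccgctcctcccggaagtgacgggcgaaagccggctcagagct

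In glucose handling, the isoforms of a step often moved apart. The list had 4 rises and 10 falls among 24 tested, with a median of -0.10 that was 0.04 without cKO 177. On the TPM scale it had 9 rises and 5 falls (median 0.34). Slc2a4, encoding the insulin-responsive transporter GLUT4, fell from 238 to 254 CPM to 34.8, 140, 108 and 133 CPM (1.24 ± 0.27, adjusted p = 0.0023). Slc2a1, encoding the basal transporter GLUT1, stood at 12.8 to 14.6 CPM in WT and 38.3, 13.9, 20.7 and 16.8 CPM in cKO; its rise of 0.74 ± 0.26 (adjusted p = 0.034) was not called without cKO 177 (0.35, adjusted p = 0.20) or without WT 248, 626, 636 or 637 (adjusted p = 0.0576 to 0.0637). Per length, Slc2a1 made up 3.09% ± 0.21 of the 2 transporters in WT and 39.3%, 5.44%, 9.87% and 7.48% in the cKO hearts, without overlap (adjusted p = 0.011). Hexokinase moved the same way in all 4 hearts: the share of Hk1, the constitutive form, rose from 34.0% ± 1.91 to 53.3% ± 4.60 (adjusted p = 0.011), with Hk2, the insulin-responsive form, falling from 357 to 413 CPM to 259, 159, 220 and 167 CPM (0.92 ± 0.13, adjusted p = 0.00011) and Hk1 itself not called (0.29 ± 0.12, adjusted p = 0.081; 0.0415 without cKO 264). Among the phosphofructokinase genes Pfkp, the platelet form, rose by 1.41 ± 0.16 (adjusted p = 1.6e-05) and Pfkfb2, the cardiac form of the bifunctional regulator, fell by 1.30 ± 0.22 (adjusted p = 0.0005).

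**Figure D3:**
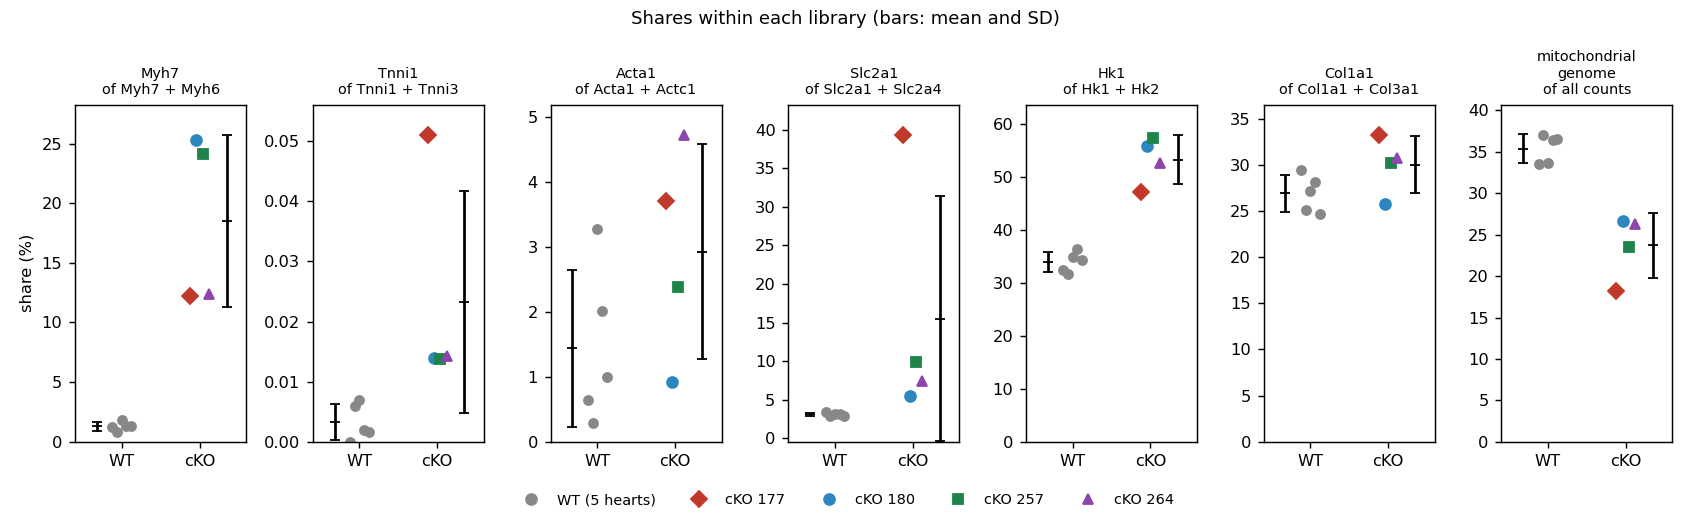
Percent share (vertical axes, each on its own scale) of 1 gene in a pair, from TPM, and of mitochondrial genome transcripts in all counts, 1 point per heart with the mean and SD beside each group. The Myh7, Tnni1, Slc2a1, Hk1 and mitochondrial shares do not overlap between 5 WT and 4 cKO hearts, whereas Acta1 and Col1a1 do, and cKO 177 is far above the other cKO hearts for Slc2a1 (39.3%).

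Matrix genes rose throughout. All 19 collagen genes tested and all 23 matricellular and proteoglycan genes tested rose, with medians of 2.63 and 2.98, and 18 and 23 did without cKO 177. Col1a1 and Col3a1, encoding the main fibrillar collagens, stood at 57.3 to 85.5 and 112 to 166 CPM in WT. In cKO 177, 180, 257 and 264, Col1a1 stood at 1333, 321, 977 and 1525 CPM and Col3a1 at 1794, 639, 1609 and 2373 CPM. The rises were 3.87 ± 0.44 (adjusted p = 1.8e-05) and 3.55 ± 0.36 (adjusted p = 8.7e-06), with cKO 264 the highest heart and cKO 180 the lowest. The share of Col1a1 in the pair was 24.7% to 29.4% in WT and 33.2%, 25.8%, 30.2% and 30.7% in cKO and overlapped (exact permutation p = 0.12), although the difference of 4.44 percentage points without cKO 180 was called (adjusted p = 0.0417). Postn, encoding periostin of activated fibroblasts, rose from 20.4 to 35.2 CPM to 374, 355, 635 and 1407 CPM (4.79 ± 0.51, adjusted p = 1.2e-05). Comp, encoding cartilage oligomeric matrix protein, rose from 0.405 to 1.07 CPM to 5.41, 57.3, 148 and 45.3 CPM (6.46 ± 0.78, adjusted p = 3.2e-05), with cKO 177 the lowest cKO heart.

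Crosslinking and turnover genes rose in 18 of 24 tested and elastic fibre and TGF-beta genes in 21 of 24, with 1 fall. Loxl3, a lysyl oxidase relative that crosslinks collagen, rose from 2.46 to 4.74 CPM to 40.1, 17.8, 33.8 and 38.1 CPM (3.35 ± 0.29, adjusted p = 2.2e-06). Mmp14, a membrane metalloprotease gene, rose by 2.40 ± 0.25 (adjusted p = 1.1e-05). The TGF-beta receptor genes Tgfbr1 and Tgfbr2 rose by nearly the same amount in every heart: Tgfbr2 stood at 49.6, 49.8, 57.2, 47.7 and 50.1 CPM in WT and 110, 107, 113 and 110 CPM in cKO (1.11 ± 0.07, adjusted p = 2.8e-07), and Tgfbr1 at 23.4 to 28.2 and 62.8 to 67.0 CPM (1.38 ± 0.10, adjusted p = 9.4e-07). The receptor gene Tgfbr3 was not called (0.12 ± 0.19, adjusted p = 0.678). Skil, a feedback inhibitor of TGF-beta signalling, rose by 1.20 ± 0.08 (adjusted p = 5.5e-07). Timp1, the metalloprotease inhibitor gene, was uneven: 0.236 to 0.81 CPM in WT and 128, 5.90, 14.8 and 12 CPM in cKO. Its rise of 6.15 ± 0.93 (adjusted p = 0.00019) was 4.26 without cKO 177.

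Among fibroblast markers 10 of 15 tested rose and none fell. The other 5 were not called: Tcf21, Gsn, Dpep1, Smoc2 and Acta2, the last at 0.01 ± 0.32 (adjusted p = 0.986). Pdgfra, the fibroblast receptor gene, stood at 41.1 to 54.0 CPM in WT and 120, 112, 103 and 113 CPM in cKO (1.21 ± 0.11, adjusted p = 3e-06), a smaller rise than the collagen median of 2.63. Meox1, a factor of activated fibroblasts, rose by 1.97 ± 0.30 (adjusted p = 0.00021). The secreted Wnt modulators had 5 rises and 1 fall among 11. Frzb rose from 3.03 to 5.72 CPM to 21.3, 30.4, 44.3 and 37.9 CPM (2.99 ± 0.22, adjusted p = 9e-07), and Sfrp1 by 2.73 ± 0.30 (adjusted p = 1.4e-05). Dkk3 went from 1.21 to 3.20 CPM to 6.16, 38.5, 49 and 34.8 CPM (4.04 ± 0.45, adjusted p = 1.6e-05), again with cKO 177 far below the other 3. Epicardial and mesothelial markers rose in all 5 tested of 11 listed (Tbx18 by 0.85 ± 0.16, adjusted p = 0.0011; Wt1 by 1.49 ± 0.35, adjusted p = 0.0041), in 3 without cKO 177 or with limma-voom. The other listed genes were too low to test. A gene could enter the test on its cKO level alone, so these 5 do not stand for the list. The listed genes summed to 14.1 to 17.9 CPM in WT and 29.2 to 99.9 CPM in cKO.

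**Figure D4:**
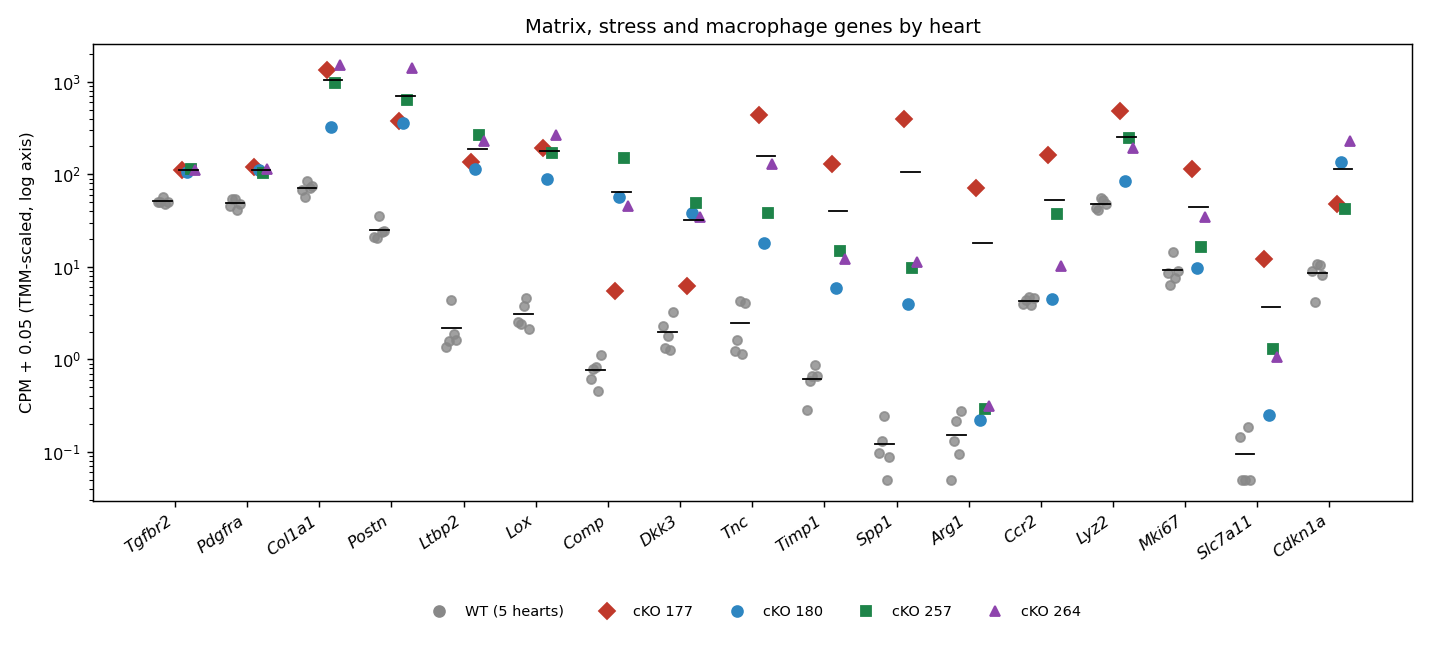
CPM plus 0.05 on a log axis for 17 matrix, macrophage, stress and cell cycle genes, 1 point per heart with black bars at the group means, grey for WT and coloured symbols for the 4 cKO hearts. Tgfbr2 and Pdgfra are alike in the 4 cKO hearts (103 to 120 CPM), cKO 177 is far above the other 3 for Spp1, Arg1, Timp1 and Ccr2, and it is the lowest cKO heart for Comp and Dkk3.

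The integrated stress response, in which the factor Atf4 raises amino acid transport and synthesis genes, gave 10 rises and 1 fall among 22 tested (median 0.63), and 8 rises without cKO 177. Nupr1, a stress-induced chromatin protein gene, rose from 0.851 to 1.71 CPM to 4.90, 6.41, 10.4 and 7.46 CPM (2.49 ± 0.28, adjusted p = 1.8e-05). Slc7a11, encoding the cystine transporter, was at 0 to 0.135 CPM in WT and 12, 0.202, 1.26 and 1.01 CPM in cKO (6.33 ± 1.17, adjusted p = 0.00076; 4.18 without cKO 177; not called with limma-voom, adjusted p = 0.0702), and with WT levels this near 0 the fitted fold depends on the prior count. Ddit4, an inhibitor of mTOR signalling, rose by 2.87 ± 0.54 (adjusted p = 0.0009), from 9.42 to 14.0 CPM to 27.9, 139, 16.4 and 160 CPM. Gdf15, a circulating stress cytokine gene, overlapped (0.142 to 0.738 CPM in WT; 3.95, 0.337, 2.28 and 1.18 CPM in cKO) and its call (2.06 ± 0.69, adjusted p = 0.030) was lost without cKO 177 (adjusted p = 0.13), cKO 257, WT 248, WT 636 or WT 637 (adjusted p = 0.0568 to 0.0657). Fgf21 was too low to test, with 0.18 CPM in WT 637, 0.0981 CPM in cKO 264 and 0 CPM in the other 7 hearts. In the serine and one-carbon list 6 of 14 rose and 1 fell (median 0.23, but -0.08 without cKO 177): the mitochondrial folate enzyme gene Mthfd2 rose from 0.779 to 1.95 CPM to 8.29, 4.72, 4.62 and 3.96 CPM (2.02 ± 0.31, adjusted p = 0.00022) and Phgdh, the first enzyme of serine synthesis, by 1.41 ± 0.37 (adjusted p = 0.0086).

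Promoter windows of stress response genes are shown to set a gene that rose beside one that fell. Of 18 listed genes with a window, 5 held TGATGNAA (reverse TTNCATCA), the composite site of Atf4 and C/EBP factors, which 3.84% of the 21770 windows held. Among these 5 genes Slc7a11 rose, whereas Vldlr, encoding the very low density lipoprotein receptor, was the 1 gene of the list that fell (0.96 ± 0.29, adjusted p = 0.016; a mean of 473 CPM in WT and 243 CPM in cKO), and the other 3 were not called or too low to test. The motif is in capitals. The Slc7a11 window is chr3:50398014-50398313 on the minus strand, with matches 65 and 46 bases before the start, and the Vldlr window is chr19:27194162-27194461 on the plus strand, with a match 192 bases before the start. A match is a description of the letters, not a site of binding.
Slc7a11: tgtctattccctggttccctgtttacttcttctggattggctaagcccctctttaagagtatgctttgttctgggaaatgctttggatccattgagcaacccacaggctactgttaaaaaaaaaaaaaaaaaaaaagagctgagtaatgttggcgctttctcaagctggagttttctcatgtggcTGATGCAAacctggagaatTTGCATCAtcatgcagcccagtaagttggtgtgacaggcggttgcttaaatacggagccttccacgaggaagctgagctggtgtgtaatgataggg
Vldlr: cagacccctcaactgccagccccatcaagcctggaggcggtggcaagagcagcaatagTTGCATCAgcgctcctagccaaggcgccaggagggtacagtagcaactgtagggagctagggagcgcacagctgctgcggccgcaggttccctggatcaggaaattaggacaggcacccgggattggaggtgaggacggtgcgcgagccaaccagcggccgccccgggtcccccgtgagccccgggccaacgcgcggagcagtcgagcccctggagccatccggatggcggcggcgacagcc

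Targets of p53 rose in 9 of 16 tested and fell in 1, and 7 rose without cKO 177. Cdkn1a, the cell cycle inhibitor p21, stood at 8.89, 4.10, 10.8, 10.4 and 8.20 CPM in WT and 47.7, 134, 41.8 and 231 CPM in cKO (3.74 ± 0.54, adjusted p = 0.00013). Trp53inp1 was likewise highest in cKO 264 and 180, with 20.4, 97.1, 32 and 134 CPM in cKO against 16.7 to 21.5 CPM in WT (1.90 ± 0.38, adjusted p = 0.0015), and cKO 177 within the WT range. Ddit4 had the same highest hearts. Cell cycle genes rose in 19 of 28 tested, but in 8 without cKO 177 and in 8 with limma-voom, and their median of 2.13 was 1.00 without it. Mki67, the proliferation marker, stood at 6.39 to 14.5 CPM in WT and 115, 9.74, 16.5 and 34.6 CPM in cKO (2.24 ± 0.55, adjusted p = 0.0051; 1.12 and adjusted p = 0.035 without cKO 177). Heat shock protein genes fell in 5 of 16 and rose in 1, with a median of -0.15, whereas on the TPM scale none fell and 7 rose (median 0.35). Over all genes tested 16.1% fell and 19.7% rose. Hspb8, encoding a small heat shock protein of muscle, fell by 0.78 ± 0.12 (adjusted p = 0.00014) and Hspd1, the mitochondrial chaperonin, by 0.99 ± 0.17 (adjusted p = 0.00057).

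Markers of recruited macrophages and monocytes rose in 13 of 14 tested with a median of 3.48, and in 11 with a median of 1.97 without cKO 177. With limma-voom 8 rose, and the calls of Spp1 (adjusted p = 0.275) and Ccr2 (adjusted p = 0.069) were lost. Their summed level was 61.5 to 76.0 CPM in WT hearts and 137 to 1468 CPM in cKO hearts. Spp1, encoding osteopontin, stood at 0.047, 0.082, 0.19, 0 and 0.038 CPM in WT and 397, 3.91, 9.78 and 11.1 CPM in cKO (10.23 ± 1.74, adjusted p = 0.00043; 6.58 without cKO 177). Ccr2, the receptor that brings monocytes out of the marrow, stood at 3.82 to 4.63 CPM in WT and 160, 4.48, 37.3 and 10.1 CPM in cKO, with cKO 180 in the WT range (3.64 ± 0.76, adjusted p = 0.0018; 2.02 without cKO 177). Lyz2 rose from 40.7 to 54.7 CPM to 486, 83.9, 245 and 193 CPM (2.40 ± 0.33, adjusted p = 8.9e-05) and Gpnmb, a gene of lipid-laden macrophages, from 0.284 to 1.11 CPM to 25.5, 6.95, 11.9 and 8.70 CPM (4.21 ± 0.44, adjusted p = 9.3e-06). Arg1, encoding arginase 1, was at 71.6 CPM in cKO 177 and at most 0.262 CPM in the other 8 hearts. Of 8 resident macrophage markers 3 rose and 1 fell: Lyve1 rose from 8.01 to 10.5 CPM to 16.5, 39.3, 24.4 and 33.7 CPM (1.56 ± 0.24, adjusted p = 0.00019), lowest in cKO 177, and Timd4 fell by 2.17 ± 0.64 (adjusted p = 0.015) from at most 1.98 CPM.

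Complement genes rose in 15 of 18 tested (median 1.76) and in 16 without cKO 177. C1qa, encoding a chain of the first complement component, rose from 10.2 to 16.6 CPM to 63, 31.9, 54.6 and 53.3 CPM (1.76 ± 0.18, adjusted p = 9e-06). Chemokine and IL-6 family genes rose in 20 of 31 tested, in 13 without cKO 177 and in 11 with limma-voom. Osmr, the oncostatin M receptor gene, rose from 30.7 to 34.8 CPM to 134, 72.2, 86.5 and 83.7 CPM (1.51 ± 0.17, adjusted p = 1.8e-05). Ccl2, the monocyte chemoattractant gene, stood at 20.4, 0.169, 2.16 and 0.752 CPM in cKO against 0.765 to 1.68 CPM in WT, and its call (2.44 ± 0.92, adjusted p = 0.049) turned to -0.07 (adjusted p = 0.95) without cKO 177 and was lost without any 1 of the WT hearts (adjusted p = 0.0618 to 0.095). Il6 and Il11 were too low to test, with their highest levels, 1.90 and 1.23 CPM, in cKO 177. Of 17 antigen presentation genes 6 rose (10 without WT 647, 12 on the TPM scale), among them the class II gene H2-Aa (1.67 ± 0.41, adjusted p = 0.0051). Interferon response genes rose in 7 of 29 and fell in 2, beside 19.7% of all genes called higher. Of them 4 rose without cKO 257, WT 248 or WT 626, or with only WT and cKO libraries fitted, and 15 rose on the TPM scale. Lymphocyte markers rose in 4 of 12 tested. That count was 1 without cKO 177, WT 636 or WT 647, 0 without cKO 257, WT 248 or WT 637, 2 without cKO 264 or WT 626, 1 with limma-voom, and 0 after TPM was rescaled without mitochondrial genes. Their summed level was 2.7 to 5.9 CPM in WT and 4.01 to 11.9 CPM in cKO.

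Neurohormonal genes were mixed, with 5 rises and 7 falls among 20 tested and a median of -0.16 that was 0.04 without cKO 177 and 0.22 on the TPM scale. The falls numbered 4 without cKO 257, and 3 on the TPM scale or with only WT and cKO libraries fitted. Adrb1, encoding the main cardiac beta-adrenergic receptor, fell from 19.8 to 26.8 CPM to 10.3, 10.0, 13.6 and 6.61 CPM (1.13 ± 0.16, adjusted p = 0.00012), and Agtr1a, encoding the angiotensin II type 1a receptor, from 48.8 to 54.4 CPM to 8.26, 31.8, 14.4 and 27.1 CPM (1.31 ± 0.28, adjusted p = 0.0019). Ace, which makes angiotensin II, rose from 46.6 to 98.0 CPM to 137, 166, 240 and 239 CPM (1.59 ± 0.30, adjusted p = 0.00095), and the endothelin receptor gene Ednrb by 1.40 ± 0.17 (adjusted p = 3.3e-05). Clock genes fell in 7 of 17 tested and rose in 1, with a median of -0.23, and on the TPM scale 3 fell and 2 rose (median 0.28). Dbp, a clock output gene, fell from 39.1 to 60.7 CPM to 12.2, 20.3, 21.9 and 8.24 CPM (1.76 ± 0.27, adjusted p = 0.00021). The hour of collection is not given in the sources used here. Immediate early genes rose in 6 of 18 and fell in none. That count was 4 without cKO 177, 3 without cKO 264, 2 with limma-voom and 13 on the TPM scale.

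Markers of other cells in the tissue changed to different degrees, and their part in the results above was not tested. Over all genes tested 19.7% rose and 16.1% fell, and counts near these shares are not read as a change of the list. Endothelial markers gave 5 rises and 1 fall among 14, 3 rises without cKO 264 and 9 on the TPM scale (Pecam1 rose by 0.42 ± 0.09, adjusted p = 0.0026, and Kdr fell by 0.76 ± 0.18, adjusted p = 0.0036), with a summed level of 1276 to 1437 CPM in WT and 1124 to 1851 CPM in cKO. Smooth muscle and pericyte markers gave 1 rise and 1 fall among 12, with a median of -0.04 that was 0.32 on the TPM scale. None of the 5 adipocyte genes tested of 12 listed was called (3 rose without cKO 177), and Adipoq was at or under 0.5 CPM in every heart. Red cell genes rose in 4 of 5 (2 without cKO 180), from a sum of 13.9 to 29.0 CPM to 19.5 to 124 CPM, and by the list median cKO 180 was the highest heart and cKO 177 was within the WT range. Ribosomal protein genes rose in 13 of 33, in 5 without cKO 177, in 6 or 7 without any 1 of the WT hearts and in 29 on the TPM scale, led by Rpl3 (1.06 ± 0.22, adjusted p = 0.0016). Cardiomyocyte identity genes fell in 8 of 12 tested (5 with only WT and cKO libraries fitted, 3 on the TPM scale) and rose in none, with a median of -0.73 (-0.51 without cKO 177), and their sum went from 112467 to 121917 CPM to 39121 to 91020 CPM.

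Among the 10 largest rises with no overlap were Tnc, encoding tenascin C (5.98 ± 1.00, adjusted p = 0.00038), Sprr1a, a stress-induced small proline-rich protein gene (6.19 ± 1.13, adjusted p = 0.00072), Cd300lf, a myeloid receptor gene (6.31 ± 1.34, adjusted p = 0.0021), and Adam8, a leukocyte metalloprotease gene (5.88 ± 0.88, adjusted p = 0.00017). All 4 were highest in cKO 177, at 440, 78.3, 44.7 and 96.9 CPM, and their rises without it were 4.63, 4.79, 3.18 and 3.90. With limma-voom Sprr1a (adjusted p = 0.0851) and Cd300lf (adjusted p = 0.129) were not called. Among the largest falls, Epha4, an ephrin receptor gene, was even across hearts: 111, 104, 90.7, 90.1 and 92.7 CPM in WT and 13.9, 15.9, 19.7 and 15.2 CPM in cKO (2.59 ± 0.20, adjusted p = 9.5e-07). Lingo3 fell by 2.60 ± 0.30 (adjusted p = 2.4e-05) and Lrrc15 by 2.50 ± 0.50 (adjusted p = 0.0014). The predicted gene Gm14288 on chromosome 2 had 657 to 1039 counts in each WT heart and 0 counts in all 4 cKO hearts, at least 320-fold lower against the floor of 3 counts in a library, but limma-voom did not call it (adjusted p = 0.122). It was also at 0 counts in 1 of the 7 treated LV libraries, and whether counts were shared with similar genes was not tested. In the opposite direction, 1500015O10Rik had 0 counts in all 5 WT hearts and 0.812 to 3.30 CPM in cKO, at least 14.8-fold higher by the same floor; it falls outside the rule for named genes and was chosen after its values were seen.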

How the data were processed

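RNA sequencing libraries of mouse left ventricle were analysed from the deposited gene table. The authors made the expected counts and the TPM values with Salmon 1.8.0 and summarised them per gene on a GENCODE annotation of GRCm39 to which human PKP2 was added. The deposited effective lengths per gene and library were used only as offsets in an alternative. The labels name both polyA RNA and a total-RNA kit with rRNA removal, which bears on how much non-polyadenylated RNA was counted. The row with no gene name held under 0.001% of the counts and was left out.

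Expected counts were rounded to whole numbers and fitted with edgeR 4.0.16 (R 4.3.3; filterByExpr, TMM scaling, quasi-likelihood test, Benjamini-Hochberg adjustment, threshold 0.05) over all 16 LV libraries in 4 groups, the 7 treated libraries entering only the estimate of the spread. Log2 fold changes have the SE taken from the F statistic. P-values of the fit rest on a spread between animals pooled over the 4 groups, although the cKO hearts varied more than the WT hearts. With only WT and cKO libraries fitted, 4867 genes were called. Calls then lost (adjusted p) were Jup (0.0529), Ctnna3 (0.0559), Vcl (0.0752), Kcna4 (0.0881), Pln (0.0538), Ttn (0.0874), Nppb (0.0673), Ppargc1a (0.0613), Slc2a1 (0.0535), Vldlr (0.0513) and Ccl2 (0.0981). Library totals of the 9 hearts were 23196670 to 39381144, so low genes carry most of the counting error. Shares were compared by a two-sided exact permutation test over 126 splits. On simulated counts for 15979 genes, 83% of 2-fold and 99% of 4-fold changes were recovered with 10 false calls. There, 200 of the more abundant genes were changed, equally up and down, and each gene had the same spread in every group. The cKO hearts varied more than WT and far more genes changed in the data, so these rates do not describe the comparison itself. Alternatives were RLE scaling, no filter, the 2 groups alone, DESeq2 1.42.0, length offsets, protein-coding genes alone, sex as a covariate, and each library left out. Others used limma 3.58.1 (voom, log2(TPM + 1), log2(TPM + 0.1) and TPM rescaled without mitochondrial genes). The rescaled TPM kept protein-coding genes only.

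The members and the 47 gene lists were chosen with earlier results of these data known. Named genes were the 4 with the smallest adjusted p of a list, any member of the junction, channel, calcium and contractile lists, a fixed panel, the 10 largest rises and falls with no overlap, and the most variable genes. Vldlr and Uqcrq were added for their promoters and Tgfbr3 beside the other receptor genes. Members not called were added to the stress response and fibroblast lists. Some measured genes are not reported here. Promoter windows were read from the GRCm39 reference genome by the annotated gene starts.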

Additional observations from a re-analysis of the deposited data

Results flagged for a closer look

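In 156 groups of 4 or 5 hearts, the gap between an extreme heart and its nearest neighbour, as a fraction of the group's range, was set against Dixon's limit, and 19 passed. Chance gives about 1 in 20, but many of these genes were named for their values, so the count is not read against that rate. The heart cKO 177 was the isolated high one for Spp1 (0.982), Cd300lf (0.973), Timp1 (0.927), Adam8 (0.913), Ccl2 (0.901) and Arg1 (0.999), and for the shares of Tnni1 (0.984) and Slc2a1 (0.869). Nppa was isolated in cKO 257 (0.883). Gpr22 and 1700047I17Rik2 were isolated in cKO 180 (0.976 and 1.000) and in WT 626 (0.891 and 0.819), and Pcnt in WT 626 (0.788). In WT 636, Ltbp2 (0.829), Postn (0.728) and Hk1 (0.715) were isolated high values. Fgf21 was flagged in WT 637 and cKO 264 (both 1.000) because the other hearts of each group were at 0 CPM.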

How the results depend on the processing

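No paired analysis was possible because the WT and cKO hearts come from different animals and share no replicate number. The 5875 calls became 4812 to 7789 over the alternatives that keep every heart, and 5147 to 6047 with 1 heart left out. Rises numbered 7209 with log2(TPM + 1) and 7091 with log2(TPM + 0.1), beside 580 and 595 falls, while TPM rescaled without mitochondrial genes gave 1619 falls. The rescaled setting, which gave the 4812 calls, tested protein-coding genes only. These TPM settings put the median gene at 0.37, 0.54 and 0.15 log2, beside 0.05 as reported. With log2(TPM + 1) and log2(TPM + 0.1) the sign turned for Jup (0.289, 0.292), Dsp (0.073, 0.073), Cdh2 (0.169, 0.170), Kcna5 (0.342, 0.373), Kcnh2 (0.136, 0.138), Slc8a1 (0.493, 0.502), Actc1 (0.075, 0.075), Tnnt2 (0.094, 0.094) and Mybpc3 (0.024, 0.024), and after rescaling for Slc8a1 (0.089). With 1 heart left out, Kcna5 ranged from -0.202 to 0.234, Slc8a1 from -0.145 to 0.004, Ccl2 from -0.067 to 2.841, and the Col1a1 share difference from 1.97 to 4.44 percentage points. The cause was not tested. Genes near 0 CPM in WT, such as Slc7a11 and Spp1, have folds that the depth leaves imprecise.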
